A study of Mus musculus with 7 samples.

Results

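The SR splicing factors are RNA-binding proteins that direct which exons enter an mRNA. The family was taken as the 10 genes Srsf1, Srsf2, Srsf3, Srsf4, Srsf5, Srsf6, Srsf7, Srsf9, Srsf10 and Srsf11, found by their GENCODE M21 symbols among the 55487 Ensembl genes of the count table, and all 10 had enough counts to be tested. RNA-seq of the cervical spinal cord compared 4 Neat1-KO; hSOD1G93A mice with 3 Neat1-WT; hSOD1G93A mice, all 8 weeks of age, with 1 library per mouse. Every mouse, the controls included, carried the hSOD1G93A transgene, a human SOD1 with a mutation of familial amyotrophic lateral sclerosis (ALS), so that no mouse without the transgene entered the comparison. The transgenic line was kept hemizygous by crossing to B6/SJL F1 females. Neat1-KO mice were homozygous for the knockout allele and Neat1-WT mice for the intact one. Both sexes were used in the study, and the sex of each mouse is not given in the sources used here. The libraries are called Neat1-KO replicates 1 to 4 and Neat1-WT replicates 2 to 4, after the numbers in their labels.

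An SR protein holds a single RNA recognition motif or a pair of them, followed by a tail rich in arginine and serine. It binds short enhancer sequences in exons and brings the U1 and U2 snRNP machinery to the neighbouring splice sites. SRPK kinases phosphorylate the tail in the cytoplasm, the importin Tnpo3 carries the protein into the nucleus, and CLK kinases phosphorylate it further and release it from nuclear speckles, where SR proteins are stored. Paraspeckles are separate bodies that lie beside speckles and are built on the long non-coding RNA Neat1, while the related RNA Malat1 resides in speckles. The comparison therefore asks how the speckle proteins were expressed where the scaffold of the neighbouring body was lost.

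No SR gene passed the test between the genotypes. The largest differences in each direction were a lower Srsf10 in Neat1-KO mice (85.7% of the Neat1-WT level) and a higher Srsf5 (109% of it). Srsf2 stood at 106% of the Neat1-WT level and was the single member whose libraries did not overlap between the genotypes (1 of 10, where 5.47% of all genes tested did not). Summed over the family, the mean level was 911 CPM in Neat1-KO and 927 CPM in Neat1-WT mice. The 95% interval of every member lay inside the fold change that a call required.

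SR genes are known to limit their own mRNA through "poison" exons, which carry an early stop codon and send the mRNA to nonsense-mediated decay (NMD). In GENCODE M21 the family has 85 transcripts, of which 29 are protein-coding, 15 are NMD transcripts and 26 are retained-intron transcripts. All members except Srsf10 have an NMD transcript, and in 5 of them an exon that overlaps no exon of a protein-coding transcript holds the stop codon. These exons are shown because the deposited counts add the reads of all exons of a gene, so that the values that follow cover mRNAs with and without them. Each sequence is the part of the exon from its first base to the early stop codon, read on the gene's strand from the GENCODE M21 transcript (GRCm38, the same assembly as mm10) in its annotated frame, with the stop codon in capitals. The stretch lies at chr17:29039454-29039487 on the plus strand in exon 4 of an Srsf3 transcript, at chr17:80205054-80205081 on the minus strand in exon 4 of an Srsf7 transcript, at chr5:115328347-115328428 on the plus strand in exon 2 of an Srsf9 transcript, at chr4:131884276-131884390 on the plus strand in exon 2 of an Srsf4 transcript and at chr3:158024209-158024231 on the minus strand in exon 4 of an Srsf11 transcript.
Srsf3: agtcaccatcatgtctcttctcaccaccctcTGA
Srsf7: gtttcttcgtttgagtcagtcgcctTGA
Srsf9: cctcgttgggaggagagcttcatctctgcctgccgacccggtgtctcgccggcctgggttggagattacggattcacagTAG
Srsf4: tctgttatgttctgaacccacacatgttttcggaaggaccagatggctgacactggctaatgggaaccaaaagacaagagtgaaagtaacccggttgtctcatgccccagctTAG
Srsf11: ttcttttccctggttcagccTGA
Stop codon included, the reading frame took 34 bases of a 456-base exon in Srsf3, 28 of 460 in Srsf7, 82 of 358 in Srsf9, 115 of 207 in Srsf4 and 23 of 109 in Srsf11. The stop was TGA in Srsf3, Srsf7 and Srsf11 and TAG in Srsf4 and Srsf9.

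Expression is given as CPM, the counts relative to library size after TMM scaling. Total counts ranged from 19661878 to 26031517 per library, and the members had between 464 and 4325 counts in a library. The counting error of a single library that holds a member's mean count was between 1.68% and 4.41%. Fold changes are Neat1-KO over Neat1-WT from edgeR's quasi-likelihood test on 18449 genes, with Benjamini-Hochberg adjustment over all of them, and a call required an adjusted p under 0.1 together with a log2 fold change beyond 0.58 in either direction. Single genes were also compared by a two-sided exact permutation test over the 35 ways to part 7 libraries into 4 and 3, with 0.0286 as its smallest p. Neat1 had 4.04 to 5.52 CPM in the Neat1-KO libraries and 80.5 to 118 CPM in the Neat1-WT libraries, so every library was on the side its label gives (log2 fold change -4.25, SE 0.15, adjusted p = 1.52e-08, edgeR). As cervical markers, 6 Hox genes active at this level of the cord summed to 169 to 218 CPM per library, while 6 lumbar Hox genes summed to at most 2.47 CPM. Genes of skeletal muscle summed to 14.5 CPM in Neat1-WT replicate 4 and to between 1.03 and 2.01 CPM in the other libraries.

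**Figure D1:**
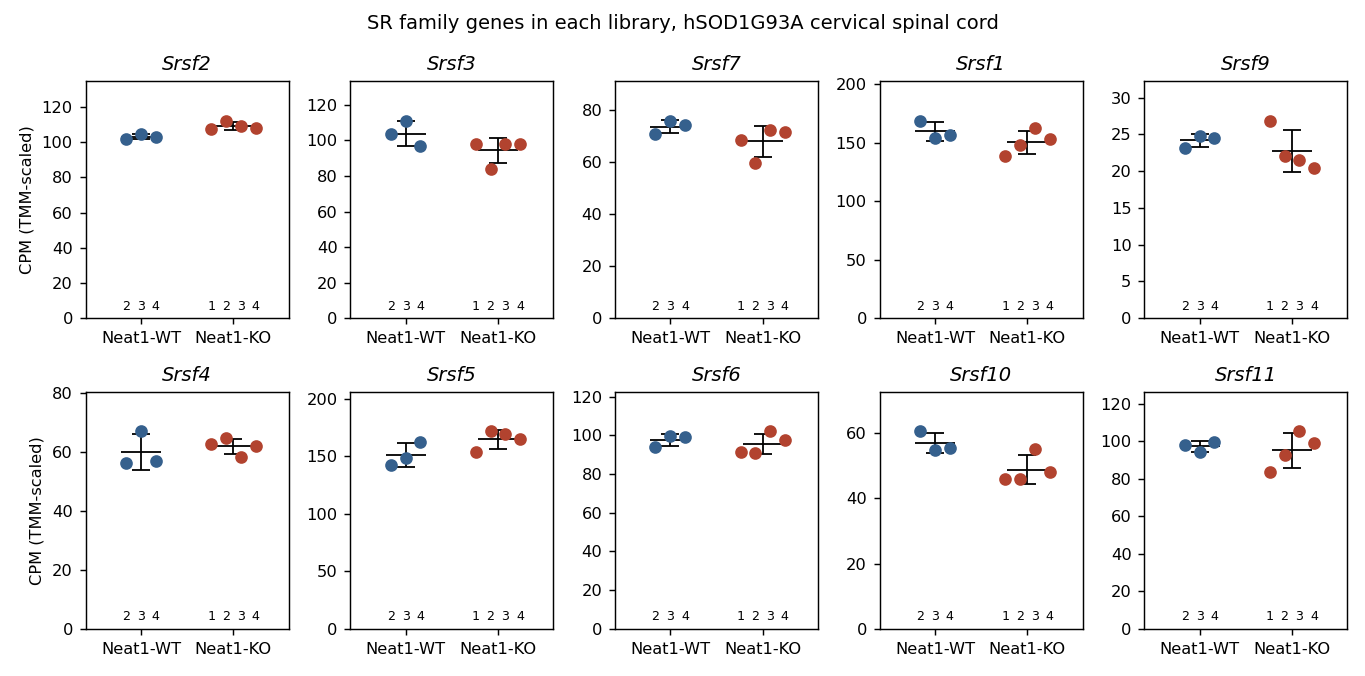
CPM of each SR gene (y axis, from 0) in the Neat1-WT (blue) and Neat1-KO (red) libraries, with points in the order of the replicate numbers printed at the foot, and the mean with SD as a bar. Srsf2 is the gene whose points do not overlap, and Neat1-KO replicate 2 sits low for Srsf3 and Srsf7.

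Among members with a single full RNA recognition motif, Srsf2 (chr11:116849901-116853094, minus strand) acts in early spliceosome assembly and stays mostly within the nucleus. Neat1-KO replicates 1 to 4 gave 107, 112, 109 and 108 CPM, and Neat1-WT replicates 2 to 4 gave 102, 105 and 103 CPM. All Neat1-KO libraries were above all Neat1-WT libraries, by a margin of less than 3 CPM. Its mean was 109 ± 2.17 CPM (SD, n = 4) against 103 ± 1.44 CPM (SD, n = 3), which gave the smallest exact permutation p the design allows (p = 0.0286, two-sided). In edgeR, which takes the spread of a gene together with that of genes of like abundance, the log2 fold change was 0.084 (SE 0.065, 95% interval -0.057 to 0.23, adjusted p = 0.992). Of all genes tested, 5.47% did not overlap between the genotypes, 2.91% with Neat1-KO above and 2.57% with Neat1-KO below, and the members had 1 of 10 above and 0 of 10 below. Exons of Srsf2 share 460 bases with Mettl23 (23.6 to 32.3 CPM) and 288 bases with Mfsd11 (43.2 to 59.1 CPM) on the opposite strand, and whether counting used strand is not given in the sources used here.

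Srsf3 (chr17:29032628-29043373, plus strand), the smallest SR protein and an adaptor for mRNA export, stood at 98.1, 84.1, 98.0 and 98.0 CPM in the Neat1-KO libraries. Neat1-WT replicates 2 to 4 had 103, 111 and 96.9 CPM. Apart from replicate 2, the Neat1-KO libraries agreed to within 0.1 CPM and lay just above the lowest Neat1-WT library. The means of 94.6 ± 6.95 CPM (SD, n = 4) and 103.9 ± 7.15 CPM (SD, n = 3) overlapped (log2 fold change -0.14, SE 0.082, adjusted p = 0.992, edgeR). Without Neat1-KO replicate 2 the log2 fold change was -0.084. Srsf7 (chr17:80200080-80207307, minus strand), the close relative of Srsf3 that carries a zinc knuckle and also serves mRNA export, had 68.2, 59.3, 72.1 and 71.5 CPM in Neat1-KO mice. Its Neat1-WT libraries had 70.6, 75.8 and 74.1 CPM. The low library was again Neat1-KO replicate 2, and the difference of -0.12 on the log2 scale (SE 0.084, adjusted p = 0.992, edgeR) became -0.059 without it.

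The members with a further, degenerate RNA recognition motif include Srsf1 and Srsf9, a related pair. Srsf1 (chr11:88047373-88053755, plus strand), which selects splice sites and shuttles to the cytoplasm, gave 138, 148, 162 and 153 CPM for Neat1-KO replicates 1 to 4 and 169, 154 and 157 CPM for Neat1-WT replicates 2 to 4. The Neat1-KO values reached into the Neat1-WT range, with a mean of 150.4 ± 10.02 CPM (SD, n = 4) against 159.8 ± 8.07 CPM (SD, n = 3). Its log2 fold change was -0.088 (SE 0.074, 95% interval -0.25 to 0.073, adjusted p = 0.992, edgeR). Srsf9 (chr5:115327177-115333080, plus strand), which has a short arginine and serine tail, was the least counted member with 26.9, 22.1, 21.5 and 20.5 CPM in Neat1-KO and 23.2, 24.8 and 24.5 CPM in Neat1-WT mice. Neat1-KO replicate 1 was the highest of all 7 libraries and the other Neat1-KO libraries were the lowest. This gave the widest interval of the family (log2 fold change -0.089, 95% interval -0.32 to 0.14, edgeR), and without that library the log2 fold change was -0.18 (adjusted p = 0.742, edgeR).

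Srsf4, Srsf5 and Srsf6 form another related group with paired RNA recognition motifs, and each acts at exonic enhancers. Srsf5 (chr12:80945504-80950507, plus strand) gave 153, 172, 169 and 165 CPM for Neat1-KO replicates 1 to 4 and 142, 149 and 163 CPM for Neat1-WT replicates 2 to 4. It was higher in all Neat1-KO libraries than in Neat1-WT replicates 2 and 3, and Neat1-WT replicate 4 lay among the Neat1-KO values. Its mean was 165 ± 8.13 CPM (SD, n = 4) against 151 ± 10.47 CPM (SD, n = 3). By the exact permutation test, p was 0.114. In edgeR the log2 fold change was 0.12 (SE 0.073, 95% interval -0.035 to 0.28, adjusted p = 0.992), the highest of the family. Srsf4 (chr4:131873617-131901706, plus strand) had 62.6, 64.6, 58.3 and 61.8 CPM against 56.0, 66.9 and 56.9 CPM, so that Neat1-WT replicate 3 was above and the other Neat1-WT libraries below every Neat1-KO library. Its difference of 0.044 on the log2 scale (SE 0.085, adjusted p = 0.992, edgeR) turned to -0.0038 without Neat1-WT replicate 2. An antisense transcript, Gm12992, shares 1532 exonic bases with Srsf4 and had 44.7 to 55.6 CPM, and without the strand setting the reads of the pair cannot be told apart. Srsf6 (chr2:162931528-162937121, plus strand), which is known to act on the splicing of tau, had 91.2, 91.1, 102 and 97.5 CPM against 94.2, 99.5 and 99.4 CPM. The Neat1-WT libraries fell inside the Neat1-KO range, and the log2 fold change was -0.033 (SE 0.072, 95% interval -0.19 to 0.12, edgeR).

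Srsf10 (chr4:135855747-135869908, plus strand) acts as a splicing repressor when it is dephosphorylated, as in heat shock and mitosis. Neat1-KO replicates 1 to 4 gave 46.0, 46.0, 55.2 and 47.9 CPM, and Neat1-WT replicates 2 to 4 gave 60.5, 54.8 and 55.3 CPM. Srsf10 was below every Neat1-WT library in 3 of the 4 Neat1-KO libraries, while Neat1-KO replicate 3 lay between them. Its mean was 48.8 ± 4.36 CPM (SD, n = 4) against 56.9 ± 3.16 CPM (SD, n = 3). By the exact permutation test, p was 0.0857. In edgeR the log2 fold change was -0.22 (SE 0.088, 95% interval -0.41 to -0.033, adjusted p = 0.992), that is 85.7% of the Neat1-WT level with an interval of 75.1% to 97.8%. Srsf10 was the only member at an unadjusted edgeR p under 0.05, where 4.64% of all genes tested were, 2.24% higher and 2.4% lower in Neat1-KO. It was no longer at that threshold without Neat1-KO replicate 2, Neat1-KO replicate 4 or Neat1-WT replicate 2, and each of these left 0 members there. Srsf11 (chr3:158010473-158036639, minus strand), which binds the U2 auxiliary factor, had 83.5, 92.7, 105 and 99.2 CPM against 98.1, 94.3 and 99.7 CPM. Both the lowest and the highest value were in Neat1-KO mice, and the difference of -0.031 on the log2 scale (SE 0.085, adjusted p = 0.996, edgeR) became 0.023 without Neat1-KO replicate 1.

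**Figure D2:**
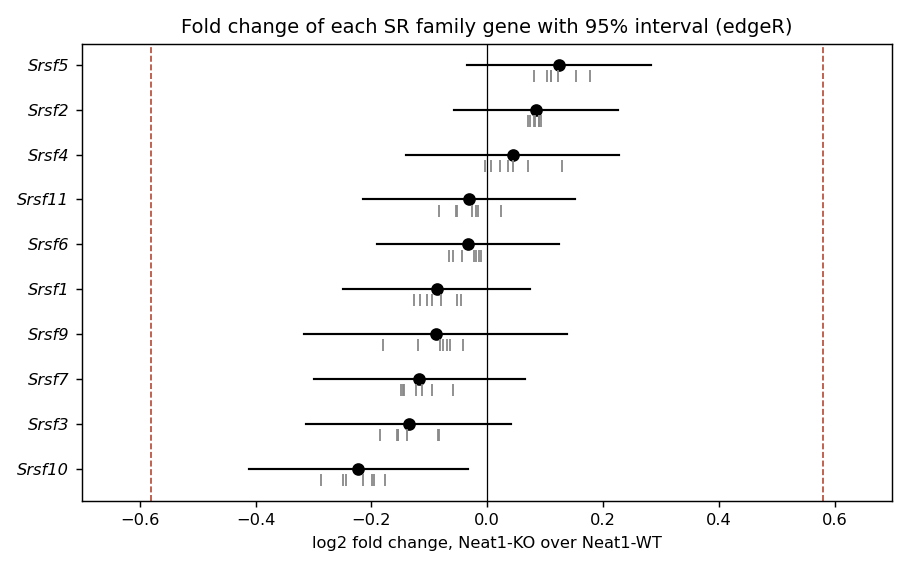
Log2 fold change of Neat1-KO over Neat1-WT (x axis) for each SR gene, with its 95% interval from edgeR as a line and the values with each library left out as grey ticks under it. The dashed lines mark 0.58 in each direction, and all 10 intervals lie between them, from -0.41 for Srsf10 to 0.28 for Srsf5.

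Over the family, 0 of 10 members were called by edgeR, where 0.0325% of all genes tested were, and 0 were called by DESeq2 or limma-voom. The log2 fold change was below 0 in 7 members and above 0 in 3, against 48.2% below and 51.8% above over all genes. The median was -0.060, beside 0.0062 over all genes tested. The median spread within a genotype was 0.10 on the log2 scale for the members and 0.17 for all genes tested, and the difference between the genotypes was larger than a member's own spread (1 SD) in 6 of the 10 members, where it was in 25.2% of all genes tested. Srsf1 was among the 6 by a margin of less than 0.01 on the log2 scale, and no test was made on this count. Intervals of single members ran from 75.1% of the Neat1-WT level at the lowest (Srsf10) to 122% at the highest (Srsf5), and they are intervals of single genes, not of all 10 at once. Summed over the family, the Neat1-KO libraries had 875, 892, 953 and 922 CPM and the Neat1-WT libraries 919, 934 and 929 CPM. The Neat1-WT sums fell inside the Neat1-KO range, with a mean of 911 ± 34.4 CPM (SD, n = 4) against 927 ± 7.76 CPM (SD, n = 3). In bulk tissue, fewer cells of a type and less RNA per cell cannot be told apart, and equal sums do not show that each cell type held its level.

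The members' shares of the summed CPM were compared as well. Srsf10 made up 5.26%, 5.15%, 5.79% and 5.19% of the sum for Neat1-KO replicates 1 to 4 and 6.58%, 5.87% and 5.95% for Neat1-WT replicates 2 to 4. These shares did not overlap, although the CPM of Srsf10 did. For Srsf2 the share was 12.01 ± 0.510% (SD, n = 4) in Neat1-KO and 11.1 ± 0.0691% (SD, n = 3) in Neat1-WT mice, again without overlap. Srsf5 had the largest difference in share, with 18.1 ± 0.790% (SD, n = 4) against 16.3 ± 1.07% (SD, n = 3), and there Neat1-KO replicate 1 and Neat1-WT replicate 4 were level at 17.5%. Shares of one sum are tied to each other, and they were looked at after the CPM values were known, so no test was made on them.

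Per length, Srsf5 was the most abundant member and Srsf10 the least. As RPKM, the CPM per kilobase of all annotated exons of a gene, Srsf5 had 39.9 ± 2.77 over the 7 libraries and Srsf2 had 36.0 ± 1.26. Srsf1 followed with 27.0 ± 1.73, then Srsf6 with 20.05 ± 0.900, Srsf7 with 19.8 ± 1.52 and Srsf4 with 17.1 ± 1.15. The lower levels were 14.1 ± 1.33 for Srsf9, 12.5 ± 1.03 for Srsf3, 11.4 ± 0.819 for Srsf11 and 7.46 ± 0.804 for Srsf10. The order was the same in every library at 5 of the 9 steps between neighbours. Srsf6 and Srsf7 did not differ beyond their spread, since Srsf6 was higher in 3 of 7 libraries and the difference was 0.268 ± 0.994 RPKM (SD). Srsf3 and Srsf11 likewise changed places, with Srsf3 higher in 5 of 7 libraries and a difference of 1.09 ± 1.26 RPKM (SD). The lengths include retained-intron transcripts, of which Srsf3 (7899 bases) has 4 and Srsf11 (8446 bases) has 11, so that their RPKM depend on that annotation.

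**Figure D3:**
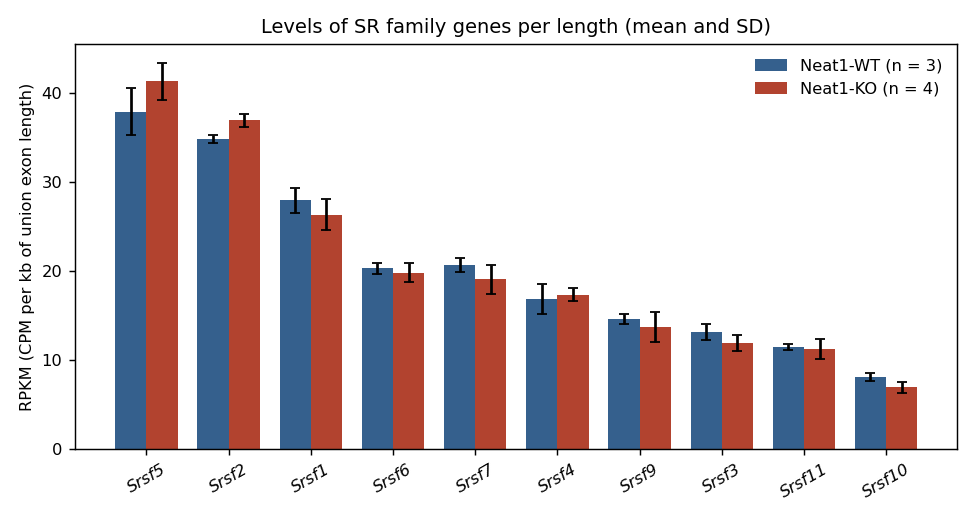
Mean RPKM with SD (y axis, from 0) of each SR gene in the 3 Neat1-WT (blue) and 4 Neat1-KO (red) libraries, ordered from the highest to the lowest mean over all libraries. Levels fall 5.34-fold from Srsf5 to Srsf10, while the bars of the genotypes stay close to each other in every gene.

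The members varied among the mice in different ways. From the lowest to the highest of the 7 libraries, levels differed 1.10-fold for Srsf2 and up to 1.32-fold for Srsf3. Neat1-KO replicate 2 was the lowest of all libraries for Srsf3, Srsf6, Srsf7 and Srsf10, and the highest for Srsf2 and Srsf5. Neat1-WT replicate 2 was the lowest for Srsf2, Srsf4 and Srsf5, and the highest for Srsf1 and Srsf10. The members thus did not rise and fall as a block in these mice. On average over the members, log2 CPM minus the mean of the 7 libraries was -0.044, -0.063, 0.037 and -0.012 in Neat1-KO replicates 1 to 4 and 0.0088, 0.050 and 0.024 in Neat1-WT replicates 2 to 4. Neat1-KO replicate 3 lay above Neat1-WT replicates 2 and 4, so that the genotypes overlapped.

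Malat1, the speckle RNA, varied in the same libraries. Neat1-KO replicates 1 to 4 gave 136, 169, 224 and 202 CPM, below the 284, 233 and 278 CPM of Neat1-WT replicates 2 to 4. The log2 fold change of -0.54 (SE 0.14, 95% interval -0.83 to -0.24, adjusted p = 0.704, edgeR) was not called, and the exact permutation p was 0.0571. In the 4 Neat1-KO mice the summed SR level and Malat1 had one order, from replicate 1 over 2 and 4 to replicate 3. In the Neat1-WT mice they did not, since Malat1 was lowest in replicate 3, where the SR sum was highest. With 4 and 3 mice no correlation was computed. Motor neuron markers (Chat, Slc18a3, Slc5a7, Mnx1 and Isl1) summed to 192 to 255 CPM in Neat1-KO and 260 to 316 CPM in Neat1-WT mice. All 5 had a log2 fold change below 0 (median -0.30), 0 were called, and each of them overlapped between the genotypes. Some other marker lists also lay on one side with 0 called. The log2 fold change was above 0 in 4 of 4 meningeal markers (median 0.49) and 4 of 4 microglial markers (median 0.12). It was below 0 in 4 of 4 oligodendrocyte markers (median -0.14) and 3 of 3 tested genes of the sensory ganglion list (median -0.32). In that last list Prph (81.1 to 112 CPM) made up most of the sum of 85.6 to 117 CPM. Scn10a and Mrgprd had at most 0.255 CPM, so the list is not read as a signal of ganglia. At an unadjusted edgeR p under 0.05, 2 of the 5 motor neuron markers were lower in Neat1-KO, where 2.4% of all genes tested were. In the other lists named here, 1 meningeal marker was higher and 1 gene of the sensory ganglion list lower at that p. There were 0 microglial and 0 oligodendrocyte markers. The part of these cells in the values of Srsf10 and Malat1 was not tested. In Neat1-KO replicate 2 the motor neuron sum was the lowest of the 7 libraries and Gfap, an astrocyte marker, was the highest (2908 CPM, against 1644 to 2448 CPM in the others), while the astrocyte markers Aqp4, Gja1 and Aldh1l1 were not highest there. Their part in the low Srsf3 and Srsf7 of that mouse was not tested. Without Neat1-WT replicate 4, which held the muscle RNA, Srsf10 had a log2 fold change of -0.24 and Srsf5 of 0.18, and no member was called.

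**Figure D4:**
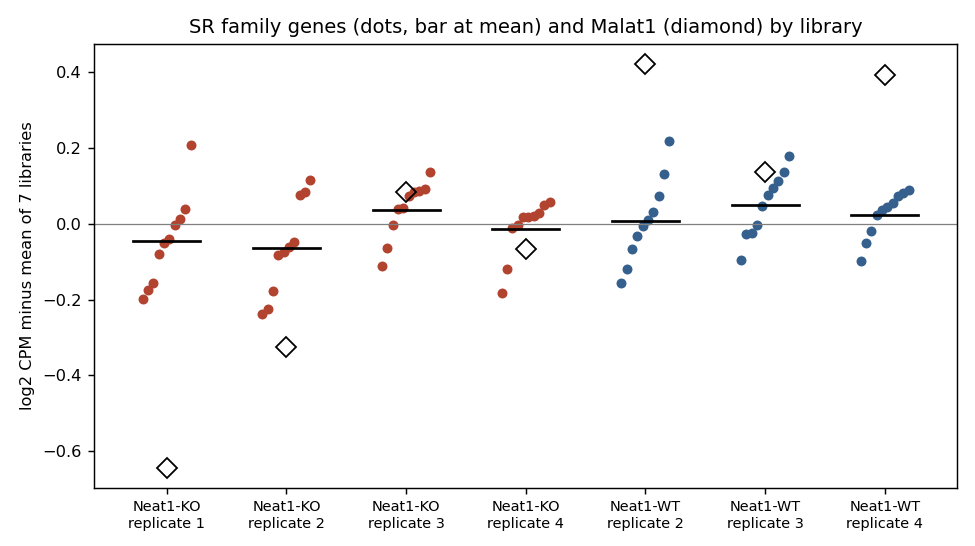
Log2 CPM minus the mean of the 7 libraries (y axis) for the 10 SR genes (dots), their mean (bar) and Malat1 (diamond) in each library (x axis). The SR means stay between -0.063 and 0.050, while Malat1 is lowest in Neat1-KO replicate 1 and highest in Neat1-WT replicate 2.

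Some members share sequence with copies elsewhere, so that uniquely mapped reads can be lost or misplaced. Srsf3 had 7 copies with at least 90% identity, of which the pseudogene Gm9761 (99.6% identical) had 2.396 to 4.92 CPM and the other 6 at most 0.305 CPM. Gm12966, a copy of Srsf5 with 98.6% identity, had 6.02 to 8.51 CPM. These levels were small beside 84.1 CPM or more of Srsf3 and 142 CPM or more of Srsf5. They hold uniquely mapped reads only, so they do not show how many reads that match both places were lost. The copies found for Srsf7, Srsf10 and Srsf11 had at most 0.357 CPM. Srsf1 shares 98 exonic bases with the antisense transcript Gm11508, which had 17.4 to 20.6 CPM.

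In 5 lists of factors that act on SR proteins or beside them, 0 genes were called by edgeR, DESeq2 or limma-voom. Of 10 genes for SR kinases and their nuclear import, 0 were called and 0 had an unadjusted p under 0.05, and the median log2 fold change was -0.0024. In this list Srpk3, a kinase mostly of muscle, had the smallest p among higher genes (0.24 on the log2 scale, exact permutation p = 0.257) at 4.21 to 6.73 CPM, and Clk1, a nuclear kinase that releases SR proteins from speckles, had the smallest among lower ones (-0.096). Clk1 had 57.4, 64.1, 90.5 and 69.8 CPM in Neat1-KO and 71.6, 71.6 and 82.7 CPM in Neat1-WT mice. Among the Neat1-KO libraries it was lowest in replicate 1 and highest in replicate 3, as were the SR sum and Malat1. The Neat1-WT libraries did not share this, with Clk1 highest in replicate 4, the SR sum in replicate 3 and Malat1 in replicate 2. Of 35 SR-related and speckle proteins, such as Son, Srrm2 and Tra2b, 34 were tested, 0 were called and 0 had a p under 0.05. Their median was 0.0095, with Scaf1, which binds RNA polymerase II, at 0.15 (exact permutation p = 0.114) and Luc7l, a U1 snRNP factor, at -0.091 (p = 0.143 by the same test). U2af1l4 had too few counts. The count at a p under 0.05 in this list rose from 0 to 4 without Neat1-KO replicate 1 and to 4 without Neat1-KO replicate 3, and was 2 without Neat1-WT replicate 4. In the list of kinases and import it was 1 without Neat1-KO replicate 3. For fits with a library left out, the share of all genes at that p is not given here. These counts are therefore not read as changes of a list. Genes called over the whole table also moved, from 6 to 31 without Neat1-KO replicate 1. They were 9 without Neat1-KO replicate 3 and 11 without Neat1-WT replicate 4.

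The hnRNP proteins often oppose SR proteins at splice sites, and of 24 genes of that list, all tested, 0 were called, 0 had a p under 0.05 and the median was -0.018. Without Neat1-KO replicate 3, 2 of them had a p under 0.05. Hnrnpa0 stood at 0.12 (exact permutation p = 0.257) and Hnrnpa2b1 at -0.11 (p = 0.229). For 15 factors of NMD and the exon junction complex, which act on mRNAs with poison exons, 0 were called and 0 had a p under 0.05. Without Neat1-KO replicate 1, Neat1-KO replicate 3 or Neat1-WT replicate 3, 1 of them did. For this list and the hnRNP list, no share of all genes in those fits is given to set beside the counts. The log2 fold change was above 0 in 12 of the 15 and the median was 0.040. Smg9 and Smg8, partners of the kinase Smg1, lay on opposite sides, at 0.22 (exact permutation p = 0.0857) and -0.15 (p = 0.200).

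Among 10 proteins of paraspeckles, the body whose RNA was lost, 0 were called and the median was -0.0092. An edgeR p under 0.05 before adjustment was reached by 2 of them, both higher in Neat1-KO, where 2.24% of all genes tested were. This count was 0 when replicate 2 or 4 of Neat1-KO was left out, likewise when replicate 2 or 3 of Neat1-WT was, and it was 1 without Neat1-KO replicate 3 or Neat1-WT replicate 4 and with DESeq2 or median-of-ratios scaling. Pspc1, a core paraspeckle protein that was named after its values were seen, was among them (log2 fold change 0.18, SE 0.079, adjusted p = 0.992, edgeR). Cpsf6, a subunit of the cleavage factor that also binds Tnpo3, stood lowest at -0.18 (exact permutation p = 0.171). Hnrnpk and Hnrnph3 belong to this list and to the hnRNP list.

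**Figure D5:**
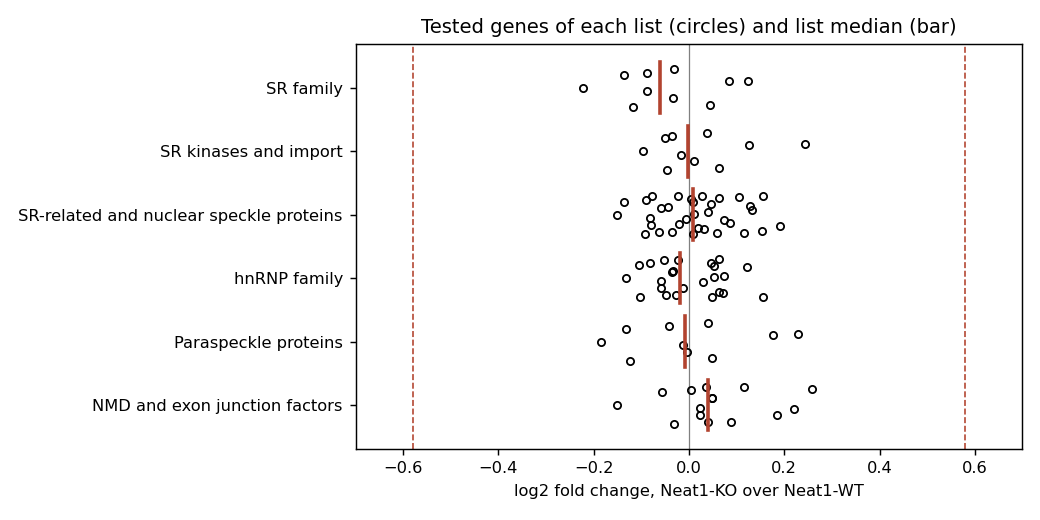
Log2 fold change of Neat1-KO over Neat1-WT (x axis) of each tested gene (circle) in the SR family and 5 companion lists (y axis), with the list's median as a bar and dashed lines at 0.58 in each direction. No gene reaches a dashed line, and the medians lie between -0.060 for the SR family and 0.040 for NMD and exon junction factors.

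Over all tested genes outside the family, Shoc2, Dedd and Hnrnpr followed the mean profile of the SR genes most closely. The root-mean-square distance of their centred log2 CPM from the members' mean over the 7 libraries was 0.015, 0.017 and 0.018. Shoc2, a scaffold of RAS signalling, had 49.1, 49.0, 52.1 and 51.0 CPM in Neat1-KO and 51.9, 52.2 and 50.8 CPM in Neat1-WT mice. Hnrnpr, an RNA-binding protein, had 68.0, 67.4, 74.6 and 70.8 CPM against 71.0, 72.4 and 72.4 CPM. Dedd, a protein with a death effector domain, had 25.8 to 27.0 CPM in Neat1-KO and 27.1 to 28.4 CPM in Neat1-WT mice. A flat profile such as the members' mean is near to many stable genes, and the distances are a description.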

How the data were processed

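RNA-seq libraries of 7 mice (4 Neat1-KO; hSOD1G93A and 3 Neat1-WT; hSOD1G93A) were grouped by their labels. The deposited values are raw read counts per Ensembl gene, which the authors made from poly(A) directional paired-end libraries. Per the study's methods and the submitters' processing notes, reads were checked with FastQC 0.11.7, trimmed with Trimmomatic 0.38, aligned with HISAT2 2.1.0 (mm10), converted with SAMtools 1.9 and counted, where uniquely mapped, with featureCounts 1.6.3. The annotation release and strand setting are not given in the sources used here. All per-sample columns were used.

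GENCODE M21 on GRCm38 named 55227 of 55487 genes. In edgeR 4.0.16 (R 4.3.3), genes were filtered by filterByExpr, TMM factors were used, and the quasi-likelihood F-test was adjusted by Benjamini-Hochberg over 18449 genes. The biological coefficient of variation was 0.128, total counts were 19661878 to 26031517, and intervals cover 95%. Replicates differed by more than sampling noise (chi-square per gene 8.11 to 18.0 over the pairs). No label ties the mice to litters or batches. The script was tested on simulated data.

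Named were all members, Neat1, Malat1, every called gene of a companion list and its tested gene with the smallest p in each direction, and the 3 genes most like the members' mean profile. A gene that this rule names in a companion list is not reported here. The members, lists and tests were chosen with earlier results of these data known. As alternatives, upper-quartile or median-of-ratios factors replaced TMM, and the others were no filter, DESeq2 1.42.0, limma-voom (limma 3.58.1), the replicate number as a block, each library left out, an adjusted p under 0.05 and no minimum fold change. For the summed level, total counts and RPKM were used instead. Copies were searched with BLAST 2.17.0 among all transcripts (at least 90% identity over at least 50% of the copy). Python 3.11.15, pandas 2.3.3 and matplotlib 3.10.9 were used. Protein sequences were not used here.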

Additional observations from a re-analysis of the deposited data

Results flagged for a closer look

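In the 4 Neat1-KO libraries, Srsf3 had 1 library far from the others. Neat1-KO replicate 2 had 84.1 CPM, and replicates 1, 3 and 4 had 98.1, 98.0 and 98.0 CPM. The gap to the nearest library was 0.993 of the whole range, above Dixon's 95% critical value for 4 samples. This ratio was computed for 26 named values, of which 1 passed, and chance passes about 5% of them, here 1.3. The other 3 libraries differ by less than the counting error of 2.14%, so that the ratio rests also on how close they lie. In the same mouse Srsf7 was the lowest of the 7 libraries, at 59.3 CPM.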

How the results depend on the processing

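None of the members was called under any of 15 alternatives, and the smallest adjusted p of a member was 0.442 (edgeR, Srsf10 without Neat1-KO replicate 3). Srsf10 kept its direction in all 13 alternatives, from -0.29 to -0.18, and the family's median stayed between -0.075 and -0.031. The number of members at an unadjusted p under 0.05 was 1 in the main test and 0 to 1 with a library left out. With a library left out, Srsf11 ranged from -0.084 to 0.023 and turned without Neat1-KO replicate 1, and Srsf4 ranged from -0.0038 to 0.13 and turned without Neat1-WT replicate 2. The 6 called genes of the whole table became 124 with no filter, 27 with DESeq2, and from 3 (Neat1-WT replicate 3 left out) to 31 (Neat1-KO replicate 1 left out). The cause was not tested. Malat1 had an adjusted p of 6.5e-08 with no filter and 0.0439 with DESeq2, with a log2 fold change of -0.54 in both, short of 0.58. The correlations of same-numbered libraries were -0.20, -0.12 and -0.015, within the -0.21 to 0.17 of the other pairs. They showed no pairing by replicate number. With so few libraries, each taken as its deviation from its genotype mean, they cannot exclude one. With the replicate block, 39 genes of the table were called, none of them a member. Under it 0 members had a p under 0.05, and Srsf11 turned to 0.025. Under the block a p under 0.05 was reached by 2 SR-related and speckle proteins, 1 paraspeckle protein and 1 NMD or exon junction factor. The share of all genes at that p under the block is not given here. The scalings moved the median of all genes by less than 0.01. Counts per gene do not show isoforms, and 4 mice against 3 give intervals that still hold a change of Srsf10 from 75.1% to 97.8% of the Neat1-WT level.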
